A study of Homo sapiens with 12 samples.

Results

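Leader cells and follower cells of collectively invading lung cancer spheroids were compared gene by gene. The comparison rested on 6 arrays, 3 of leader cells and 3 of follower cells, and covered the 14884 genes that carried a symbol in the platform annotation, out of a table of 53617 probesets. A gene with several probesets was read from the one of them that had the highest mean across the 12 arrays of the series. All samples were H1299-Dendra2 cells. H1299 is a line from a human lung carcinoma of the non-small cell type, and Dendra2 is a fluorophore that turns from green to red under violet light and that the line carried stably. Leader cells stand at the tip of an invading chain and follower cells behind them. According to the methods, spheroids invaded Matrigel overnight, chosen cells were photoconverted under the microscope, the matrix was digested with dispase, and sorted cells were collected at 10 per well in triplicate. The labels give no drug or genetic treatment that separated the groups, and leader and follower cells were chosen by their position. The remaining 6 arrays held invasive photoconverted and invasive non-photoconverted cells of the same line, 3 arrays each, and their values are given beside those of leader and follower cells. The labels do not say whether the wells of a group came from separate cultures, nor whether the arrayed leader and follower cells were sorted straight from a spheroid or grown as a line first. With 10 cells per well, a difference between wells can come from a few cells, and fewer cells that express a gene and less RNA per cell cannot be told apart.

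In collective invasion, cells move into the matrix as chains or strands that keep contact with each other. The cell at the front meets the matrix first, pulls on it and remodels it, while the cells behind stay attached and move along the path. Growth factor receptors, the RAS-MAP kinase cascade, the actin cytoskeleton and its transcription factors SRF and YAP link such contacts to gene expression, and immediate early genes such as EGR1 are transcribed within minutes of a signal. The study drew genes of VEGF signalling, focal adhesions and RNA polymerase II in a network, and the account here turns mostly to other genes.

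Values were on the log2 scale, and most genes gave little signal. The quartiles of the mean log2 value over the 6 arrays were 2.65 and 3.22, and 91 genes, 0.611%, had a mean of 6 or more. Between 76 and 192 genes per array lay above 6, with the lowest number on follower replicate 3 and the highest on follower replicate 2. Pearson correlations across genes between any pair of the 6 arrays ran from 0.593 to 0.746, and the highest joined leader replicate 1 and follower replicate 2. Among the genes with the highest values were GAGE12C, a cancer-testis antigen gene with near-identical copies, the ribosomal protein gene RPL41, the long non-coding RNA MALAT1 and the HSP90 co-chaperone gene PTGES3. Leader and follower means of GAGE12C differed by -0.02 (standard error 0.17). VIM, which encodes the intermediate filament vimentin, had a mean in the upper percent of genes (percentile 99.2). The keratin genes KRT18 and KRT8 stood at percentiles 94.8 and 80.5. DCN, a fibroblast marker, was at 2.34 in leader and 2.31 in follower cells. THY1, the highest of the 3 measured fibroblast markers, had a mean of 3.13, above the median level of all genes (2.89). Of the 8 measured endothelial markers, 6 had the higher mean in leader cells, with a median difference of 0.23 (0.18 to 0.26 with single arrays left out). Their mean log2 value was 2.86 to 2.97 on leader and 2.69 to 2.84 on follower arrays. VWF differed by 0.31, CLDN5 by 0.31 with its leader arrays above all 9 others, and PECAM1 had a mean of 3.19 in both groups. The part of this shift in other results was not tested. The mean log2 value of the 12 measured leukocyte markers was 2.89 to 3.04 on leader and 2.86 to 3.06 on follower arrays.

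No gene passed the test across all genes. In limma, fitted over all 12 arrays in 4 groups with Benjamini-Hochberg adjustment, 0 of 14884 genes (0%) had an adjusted p under 0.05, and the smallest adjusted p was 1.00. At an unadjusted p under 0.05, 318 genes (2.14%) had the higher mean in leader cells and 295 genes (1.98%) in follower cells. The permutation procedure of the methods, which weighs the differences of the 9 leader-follower pairs in each gene by the 9 absolute ones between pairs of invasive controls, called 464 genes (3.27%) for leader and 376 genes (2.65%) for follower cells out of 14198 that it kept. The methods describe this procedure briefly, and the version run here is a reading of it. Its 9 pairs are formed from 3 arrays a side and so are not independent. For 746 genes (5.01%) the 3 leader arrays lay above the 3 follower arrays, and for 555 genes (3.73%) they lay below. The median leader minus follower difference of all genes was 0.0022. Differences of at least 1 on the log2 scale were found for 106 genes with the higher mean in leader cells and for 173 with the higher mean in follower cells. Precision depended on the level. The median 95% interval of a difference reached 0.52 to each side for genes with a mean between 2.5 and 3, and 1.10 for genes with a mean between 4 and 6 (2.15-fold). All genes named from here on had an adjusted p of 1.00 from limma and are given by their values. The 30 genes described first were picked because arrays of both groups were apart, so that this separation is a criterion and not a finding. The genes named from lists were the members with the smallest unadjusted p.

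**Figure D1:**
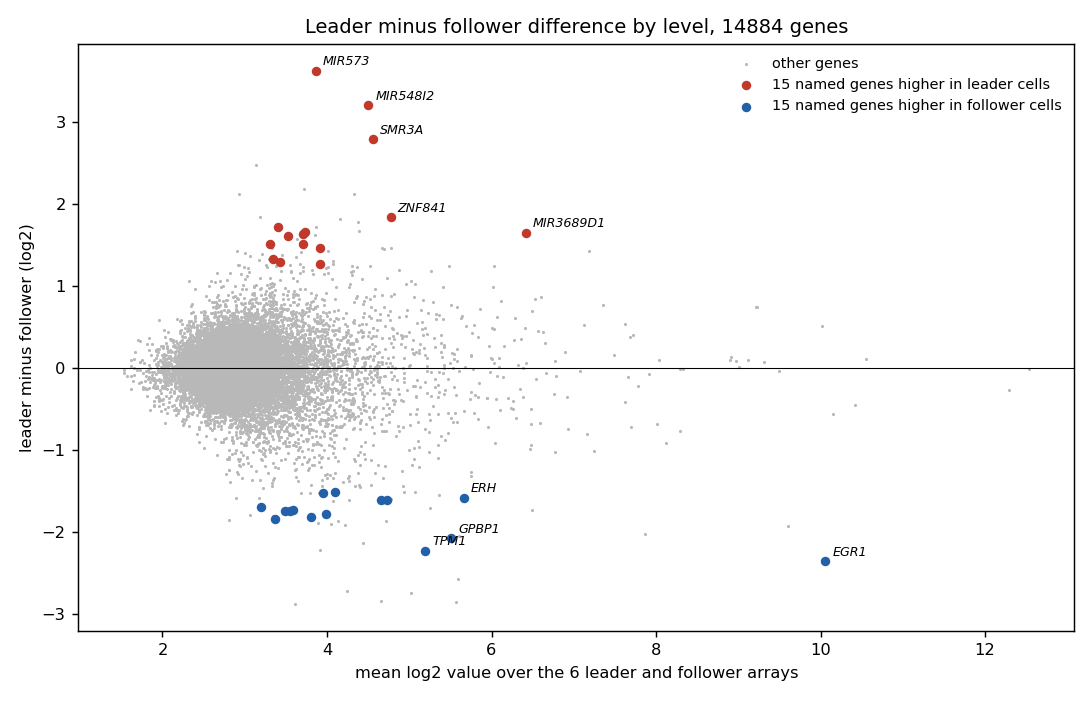
Leader minus follower log2 difference (y axis) against the mean log2 value over the 6 leader and follower arrays (x axis) for 14884 genes, 1 point per gene. Red and blue points are the 15 named genes with the higher value in leader and in follower cells, of which MIR573 had the largest positive difference (3.63) and EGR1 the largest negative one (-2.36) of these 30 genes. Most genes cluster between values of 2 and 4.

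The genes with the larger values in leader cells were of varied function. They included several microRNA genes, the salivary protein gene SMR3A, the membrane protein gene TMCC1 and the glutaredoxin gene GLRX2. Among 37 genes that met the criteria (no overlap, unadjusted p under 0.05, leader mean of at least 4) the 15 with the largest differences spanned 1.27 to 3.63 on the log2 scale. In 8 of the 15, leaving out 1 array moved the difference by more than 1.5 times. SMR3A, a gene best known from salivary glands, had log2 values of 8.6, 4.08 and 5.17 in leader cells and of 3.11, 2.71 and 3.65 in follower cells. Its difference was 2.79 (standard error 1.04), and 1.47 without leader replicate 1. An array of photoconverted invasive cells also reached 6.6, so a high value was not found in leader cells alone. ZNF841, a zinc finger gene, was at 4.79, 5.54 and 6.74 in leader cells and at 4.47, 3.97 and 3.12 in follower cells. Its 3 leader arrays lay above all 9 other arrays, whose highest value was 4.54, and the difference of 1.84 had a 95% interval of 0.76 to 2.92.

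EPB41L5 encodes a FERM domain protein that in mouse embryos takes part in epithelial-mesenchymal transition. Its leader values were 4.53, 5.15 and 3.11 against follower values of 2.48, 2.60 and 2.54, a difference of 1.72 (standard error 0.52). The follower arrays were close together and the leader arrays spread over 2 log2 units, and a second EPB41L5 probeset differed by 0.02 only. TMCC1, a membrane protein of the endoplasmic reticulum at sites of endosome fission, had values of 4.76, 4.58 and 4.06 in leader and of 2.75, 2.85 and 3.27 in follower cells. This difference of 1.51 ranged from 1.36 to 1.71 when single arrays were left out, a narrow range beside those of SMR3A and LYSET. A non-photoconverted control array reached 5.01.

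LYSET, which is needed to tag lysosomal enzymes with mannose 6-phosphate, stood at 3.58, 6.15 and 4.19 in leader cells and at 3.04, 3.55 and 2.95 in follower cells. Without leader replicate 2 its difference of 1.46 was 0.70. GLRX2, a mitochondrial glutaredoxin, had a difference of 1.33 (95% interval 0.32 to 2.33). For RMND5A, a subunit of the CTLH ubiquitin ligase, the 3 leader arrays (3.74, 4.09 and 4.40) and the 3 follower arrays (2.73, 2.48 and 3.15) gave the smallest standard error of this group, 0.28 for a difference of 1.29. The values of RMND5A in both invasive control groups (2.87 to 3.90) overlapped the follower arrays, and a photoconverted array (3.90) reached the leader range. MPLKIP, a gene mutated in a form of trichothiodystrophy, differed by 1.63, and its mean in non-photoconverted control cells (4.76) was above that in leader cells (4.52). CST4 (difference 1.51), which encodes the secreted protease inhibitor cystatin S and has close copies in CST1 and CST2, the pseudogene DHFRP3 (1.61) and NOL4 (1.27) completed the protein-coding and pseudogene members. Without leader replicate 1 the differences were 1.03 for DHFRP3 and 0.57 for NOL4. DHFRP3 and CST4 cannot be told apart with certainty from related sequences by these probes. The other 4 members of the 15 were microRNA genes, described further on.

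**Figure D2:**
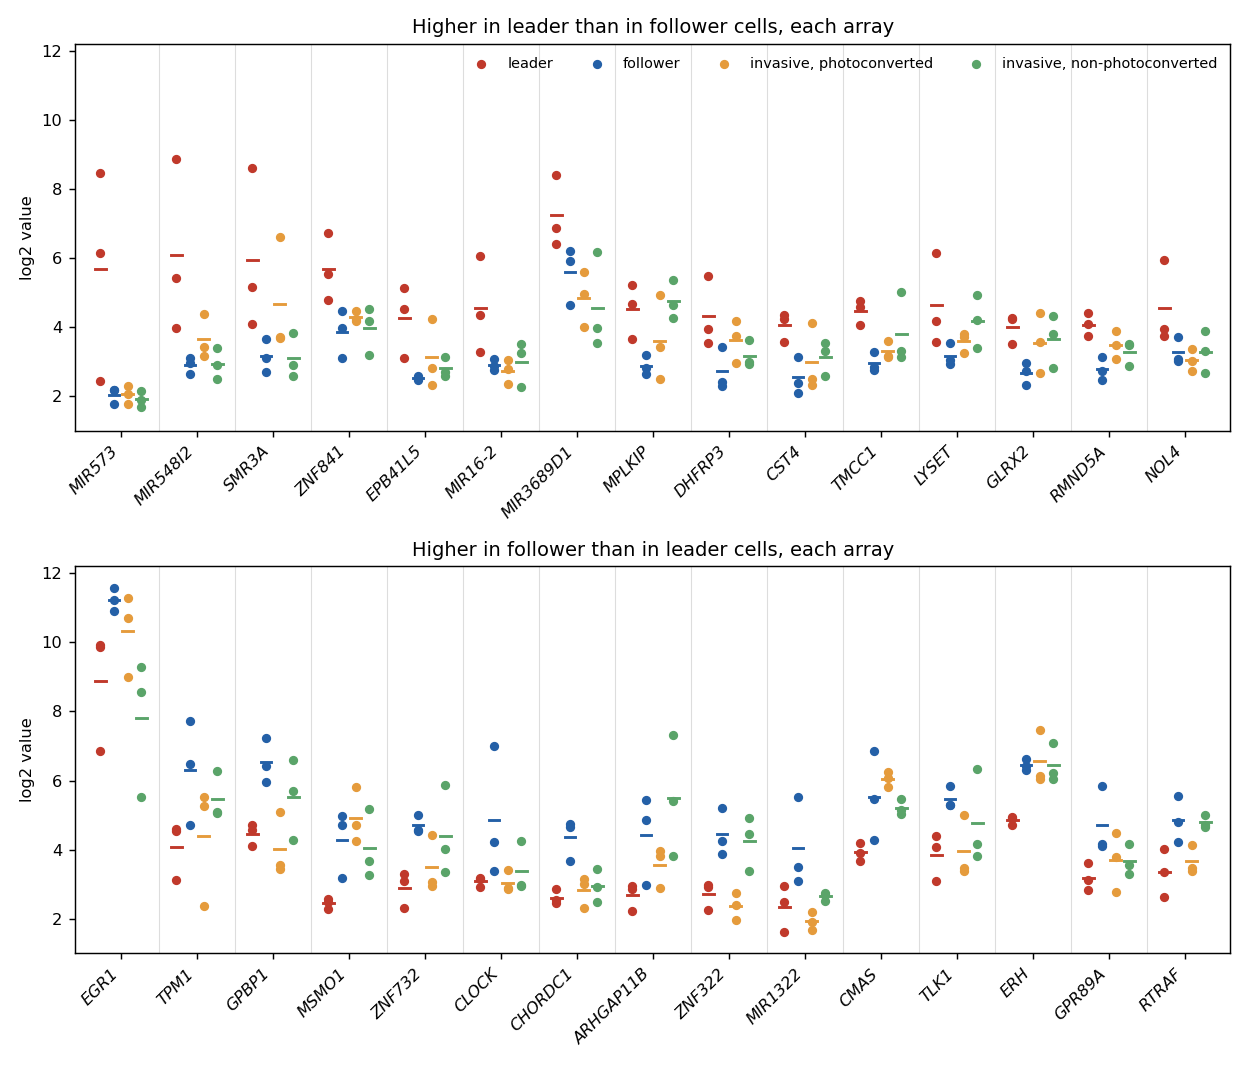
Log2 value (y axis) of the 15 named genes with the higher mean in leader cells (upper panel) and in follower cells (lower panel) on each of the 12 arrays. Points are arrays, short bars are group means of 3 arrays, and colours mark the 4 groups; for ERH and ZNF841 the leader arrays lie apart from all 9 others, while for MPLKIP and SMR3A control arrays reach into the leader range.

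EGR1 led the genes that met the criteria in the other direction. It encodes a zinc finger transcription factor and is the textbook immediate early gene downstream of growth factor receptors, ERK and the serum response factor SRF. Its log2 values were 6.85, 9.87 and 9.92 in leader cells and 10.90, 11.22 and 11.59 in follower cells. The leader arrays were all below the follower arrays, and leader replicate 1 stood far below the other 2. The difference was -2.36 (standard error 1.02, 95% interval -4.59 to -0.13), and -1.34 without leader replicate 1. A second EGR1 probeset had a difference of -1.44. The invasive controls varied too, with values of 8.99, 11.28 and 10.71 in photoconverted and of 5.53, 8.57 and 9.29 in non-photoconverted cells, a difference of 2.53 between groups that were both invasive. EGR1 is shown with its promoter because it was the most strongly detected of the 30 named genes and because SRF acts through a motif, the CArG box, that is readily found in sequence. The RefSeq promoter of EGR1 in build GRCh38.p14 lies on the + strand at chr5:138465229-138465528, which is 250 bases before to 50 bases after the start of transcription. Capitals mark the CArG boxes.

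EGR1: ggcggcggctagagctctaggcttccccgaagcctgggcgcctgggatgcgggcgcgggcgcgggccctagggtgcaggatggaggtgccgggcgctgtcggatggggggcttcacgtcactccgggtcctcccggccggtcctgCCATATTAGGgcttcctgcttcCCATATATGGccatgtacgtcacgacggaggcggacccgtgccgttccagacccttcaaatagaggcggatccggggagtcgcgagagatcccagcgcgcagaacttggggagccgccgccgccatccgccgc

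The window holds 2 CArG boxes, which begin 105 and 83 bases before the start and do not overlap. The motif is its own reverse complement in form, so that a search of a strand covers both. In all, 454 of 35116 promoters of this length (1.29%) hold at least 1 such box and 11 hold 2 or more. Of the 15 measured immediate early genes that had a promoter in the table, EGR1 was the only one with a box in this window. A match describes letters only, and no binding was measured.

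Other genes with higher values in follower cells were of varied function. They included TPM1 of the actin cytoskeleton, MSMO1 of sterol synthesis, ERH and RTRAF of RNA processing and CMAS of sialic acid metabolism. The criteria were met by 47 genes, and the 15 with the largest differences spanned -2.36 to -1.51. TPM1 encodes a tropomyosin, a coiled-coil protein that runs along actin filaments. Its leader values were 4.54, 3.11 and 4.58 and its follower values 6.47, 7.73 and 4.72, a difference of -2.23 (standard error 0.89). The lowest follower array was just above the highest leader array, and a second TPM1 probeset differed by -1.03. GPBP1, which encodes a protein that binds GC-rich promoters, had values of 4.72, 4.12 and 4.57 in leader and of 6.42, 7.24 and 5.96 in follower cells (difference -2.08, 95% interval -3.35 to -0.81). In photoconverted control cells GPBP1 was at 3.45, 5.08 and 3.54, nearer to the leader than to the follower arrays.

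ERH, a small conserved protein of RNA processing, had close values within each group. Its values were 4.96, 4.92 and 4.73 in leader cells and 6.41, 6.64 and 6.32 in follower cells. All 9 arrays outside the leader group lay between 6.04 and 7.47. The difference of -1.59 stayed between -1.65 and -1.50 whichever of the 6 arrays was left out. CMAS, which activates sialic acid for transfer to glycoproteins and glycolipids, also separated the leader arrays (3.90, 4.20 and 3.67) from all 9 others, with follower values of 6.86, 5.47 and 4.28 and control values of 5.02 to 6.23. Its difference was -1.62 and was -0.95 without follower replicate 1. The methods do not name the test that set aside genes changed between the invasive controls, and an unadjusted t-test was used here. It left out CMAS, ZNF322, RTRAF and MIR1322. From limma, the unadjusted p of this control difference was 0.11 for CMAS, 0.00097 for ZNF322, 0.014 for RTRAF and 0.20 for MIR1322. Photoconverted minus non-photoconverted differences were 0.83 for CMAS, -1.88 for ZNF322, -1.13 for RTRAF and -0.72 for MIR1322.

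CHORDC1 encodes a protein that works with HSP90. It was at 2.45, 2.53 and 2.86 in leader cells and at 3.67, 4.66 and 4.75 in follower cells. Here the follower arrays stood apart from all 9 others, whose highest value was 3.43. TLK1, a kinase that acts on the histone chaperone ASF1, had values of 4.06, 3.11 and 4.40 in leader and of 5.83, 5.28 and 5.29 in follower cells. RTRAF, an RNA-binding protein of the tRNA ligase complex, was at 3.36, 2.63 and 4.03 against 5.54, 4.79 and 4.23. CLOCK, a core transcription factor of the circadian clock, differed by -1.78, but follower replicate 1 (7.0) carried most of it, and the difference was -0.71 without that array. Among the remaining members, the zinc finger genes ZNF732 (-1.82) and ZNF322 (-1.73) and GPR89A (-1.52, and -0.95 without follower replicate 2), whose product controls Golgi pH, were lower in leader cells on all arrays, as the criteria required. ARHGAP11B (-1.74) and GPR89A have near-identical copies in ARHGAP11A and GPR89B, so that the source of their signal is uncertain. GPR89B itself, looked up after the values of GPR89A were seen, differed by -1.22, and a second probeset of GPR89A by -0.08.

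Across the 30 genes, the leader arrays lay beyond all 9 other arrays for 3 of the 15 genes that were higher in leader cells and for 3 of the 15 that were lower, and the follower arrays lay beyond the others for 2 of the latter. Over all genes, picked or not, the leader arrays lay beyond the 9 others for 139 (0.934%) and the follower arrays for 90 (0.605%). The 30 genes were picked for leader and follower arrays apart, which is part of this pattern. Their counts therefore cannot be read as an excess over these shares. The photoconverted control mean fell between the leader and follower means for 12 of the 15 genes higher in leader cells and for 8 of the 15 lower ones. Genes picked for a wide gap leave room for the mean of another group inside it. The share over all genes was not counted, so these counts do not place the controls between the groups.

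Signal-responsive genes were read through fixed lists, whose membership was chosen with earlier results of these data known. Of 46 lists with at least 5 measured members, 26 had a median difference that changed sign when 1 of the 6 arrays was left out. Lists were measured to different extents, with 71 of 75 mitochondrial ribosomal genes but 15 of 76 oxidative phosphorylation and 17 of 44 actin genes. For extracellular matrix it was 12 of 34, for TGF-beta and BMP signalling 14 of 33 and for the proteasome 0 of 40. A median describes the measured members only. All counts of list members at an unadjusted p under 0.05 stand beside 2.14% higher and 1.98% lower over all genes. Of 19 measured immediate early genes, the leader mean was higher in 9 and lower in 10, with a median difference of -0.03. At an unadjusted p under 0.05 there was 1 higher and 3 were lower, where the background was 2.14% and 1.98%. DUSP1, a phosphatase that switches off MAP kinases, had log2 values of 2.81, 2.36 and 2.53 in leader cells and of 3.53, 3.49 and 3.41 in follower cells. IER2 was at 2.60, 2.94 and 3.24 against 4.01, 3.33 and 3.42. ATF3, a stress-induced transcription factor, lay the other way, at 3.05, 3.03 and 4.0 in leader and 2.89, 2.62 and 2.68 in follower cells, and its difference of 0.63 was 0.31 without leader replicate 3. The t-test between the invasive controls left ATF3 out (difference -0.67). The immediate early genes thus did not share a direction.

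Receptor tyrosine kinase and RAS-MAP kinase genes had lower means in leader cells in 18 of 27 cases, with a median of -0.22. At an unadjusted p under 0.05, 0 were higher and 3 were lower (over all genes 2.14% and 1.98%), and these were DUSP1, DUSP6 and AXL. The median was -0.15 without leader replicate 2. DUSP6, a phosphatase that acts on ERK and is itself a target of that pathway, was at 2.84, 2.33 and 2.67 in leader and at 2.97, 3.25 and 3.26 in follower cells. Its follower arrays exceeded all 9 others by a small margin. AXL, a receptor tyrosine kinase linked to invasion and a YAP target, had leader values of 3.81, 3.18 and 3.35 and follower values of 4.44, 3.97 and 4.70. The leader arrays of AXL were below all 9 others, and the non-photoconverted controls were the highest (4.76 to 6.07). Its difference was -0.93 (95% interval -1.64 to -0.21).

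Hippo pathway genes and YAP targets had 6 higher and 11 lower means of 17, with a median of -0.06. CCN2, the secreted matricellular factor CTGF and the best known YAP target, had the highest level of them. Leader replicate 1 (11.03) was at the level of the follower arrays (10.61, 10.79 and 10.30), while the other leader arrays (7.75 and 7.14) were more than 2 log2 units lower. The difference of -1.93 had a 95% interval of -4.20 to 0.35, and it was -3.12 without leader replicate 1 and -1.18 if replicate 3 of the leader cells was left out. Leader replicate 1 was thus the array with the lowest EGR1 and the highest CCN2 value of its group. Of 17 genes of actin assembly and contraction, 5 had higher and 12 lower means with a median of -0.15, and besides TPM1 the tropomyosin gene TPM4 was at 4.49, 2.89 and 4.39 in leader and at 6.14, 4.63 and 4.13 in follower cells, which overlapped. The median of the actin list turned to 0.05 without leader replicate 2 and to 0.04 on leaving out follower replicate 1, and between the invasive controls it was -0.38.

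**Figure D3:**
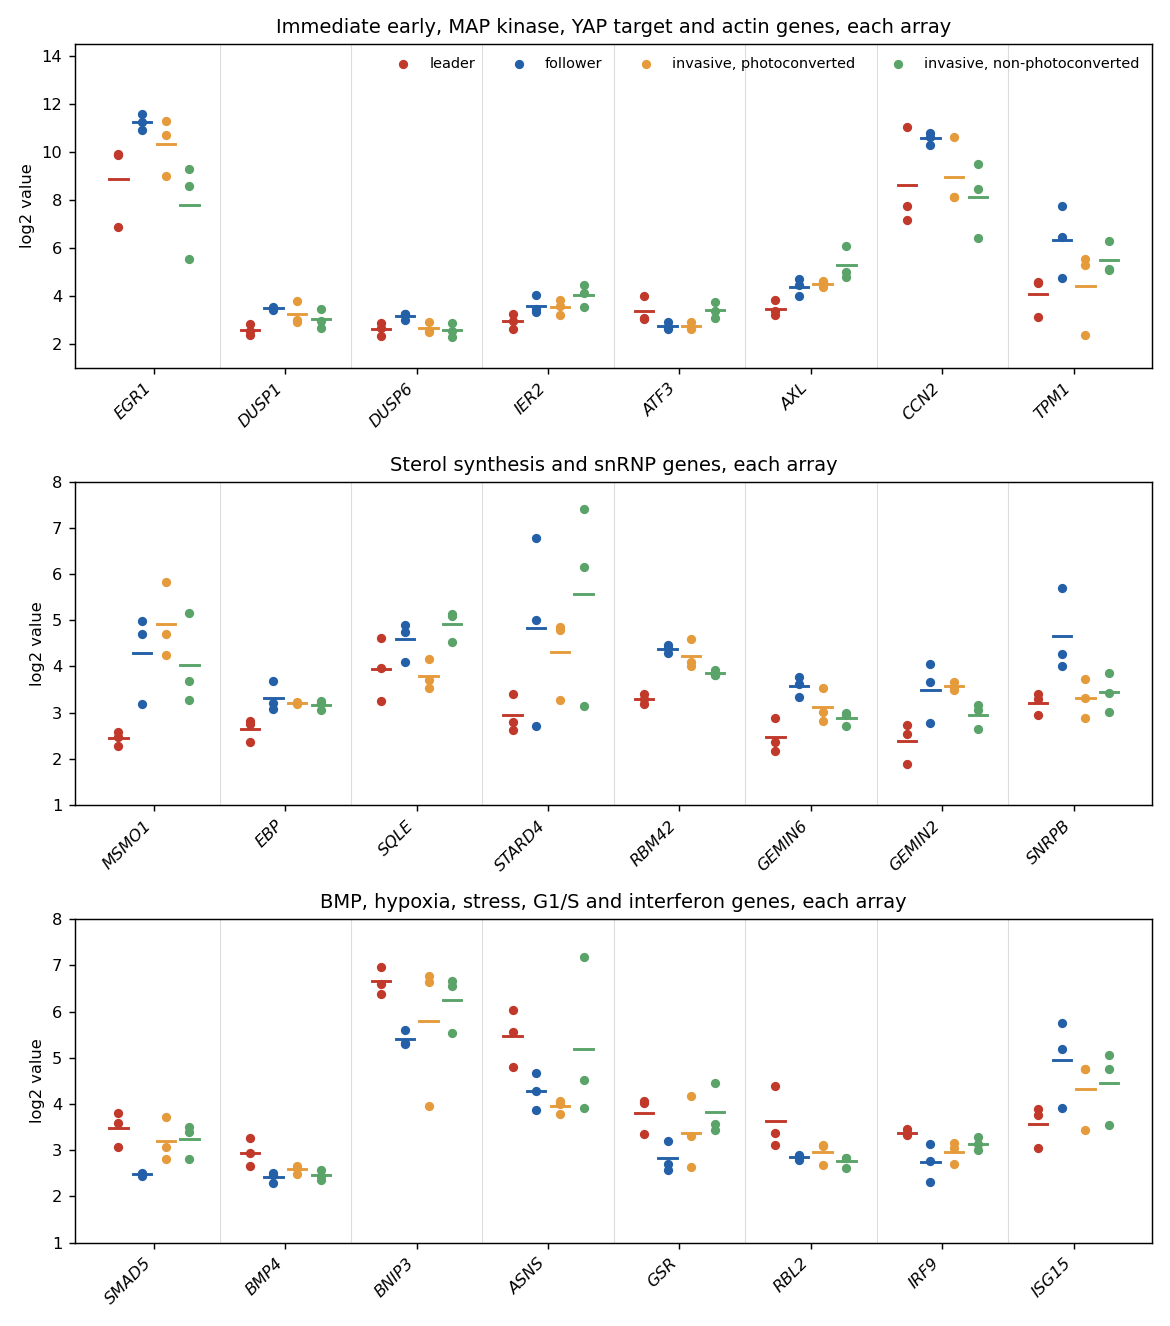
Log2 values (y axis) on each of the 12 arrays for genes of signalling and the cytoskeleton (upper panel), of sterol synthesis and snRNP assembly (middle) and of BMP signalling, stress, the G1/S transition and interferon (lower). Points are arrays and bars are means of 3; DUSP1, MSMO1, RBM42 and SMAD5 show leader and follower arrays apart, and CCN2 shows leader replicate 1 at the follower level.

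Sterol synthesis genes had lower means in leader cells for 14 of 19 measured members, with a median of -0.18 (range -0.25 to -0.12 with single arrays left out). At an unadjusted p under 0.05, 0 were higher and 2 were lower, beside 2.14% and 1.98% of all genes. MSMO1, the C4-methylsterol oxidase of the pathway, had lower values on the leader arrays (2.27, 2.58 and 2.48) than on all 9 others, with follower values of 4.98, 4.70 and 3.18. EBP, the sterol isomerase, showed the same order with leader values of 2.82, 2.75 and 2.36 and follower values of 3.69, 3.09 and 3.21, a difference of -0.68 (standard error 0.20). SQLE, the squalene epoxidase (difference -0.64), and STARD4, a sterol carrier (-1.89), had overlapping arrays, and follower replicate 3 was at the leader level for STARD4 (2.71). Without follower replicate 2 the STARD4 difference was -0.91, and without leader replicate 2 that of SQLE was -0.29. SQLE differed by -1.12 between the invasive controls, and the t-test between these controls left it out. Between the invasive controls this list had a median of -0.29, so that a shift of this size also arose between groups not set apart as leader and follower. Fatty acid genes had 4 higher and 11 lower means with a median of -0.17, which was -0.039 without leader replicate 2 and -0.19 between the invasive controls, and 0 had an unadjusted p under 0.05 in limma.

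Splicing and snRNP genes split evenly, 26 higher and 28 lower of 54, with a median of -0.02. At an unadjusted p under 0.05, 1 was higher and 4 were lower, beside 2.14% and 1.98% of all genes. The higher one was the helicase gene DHX15, which is taken up with the microRNA genes. Of the lower ones, GEMIN2 and GEMIN6 are subunits of the SMN complex, which loads Sm proteins onto small nuclear RNAs, and SNRPB encodes one of those Sm proteins. GEMIN6 was at 2.37, 2.88 and 2.18 in leader cells and at 3.62, 3.33 and 3.78 in follower cells. GEMIN2 had values of 2.54, 1.88 and 2.74 against 2.78, 3.66 and 4.05, with the nearest arrays of both groups almost touching. The t-test between the invasive controls left GEMIN2 out (difference 0.61), while the unadjusted p of that difference from limma was 0.080. SNRPB was at 2.94, 3.41 and 3.30 in leader and at 4.0, 5.71 and 4.27 in follower cells, and its follower arrays exceeded all 9 others. Its difference of -1.44 was -0.92 without follower replicate 2. RBM42, an RNA-binding protein found with the spliceosome, had narrow groups, 3.41, 3.19 and 3.29 against 4.46, 4.29 and 4.40, and its leader arrays were below all 9 others.

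Heat shock proteins and chaperonins had 4 higher and 18 lower means of 22, with a median of -0.27 that ranged from -0.36 to -0.17 with single arrays left out. At an unadjusted p under 0.05, 0 were higher and CHORDC1 alone was lower, beside 2.14% and 1.98% of all genes. HSPH1, a nucleotide exchange factor of HSP70, was at 7.05, 4.28 and 5.53 in leader and at 6.91, 7.78 and 7.40 in follower cells, and HSPD1, the mitochondrial chaperonin, was at 6.41, 4.54 and 5.80 against 6.54, 7.11 and 5.84. Leader replicate 2 was the lowest leader array for both, and without it the differences of -1.74 and -0.91 were -1.07 and -0.39. Between the invasive controls the median of this list was -0.44, larger than between leader and follower cells, and HSPH1 differed by -2.44. Of 17 genes of the unfolded protein and amino acid stress responses, 6 had higher and 11 lower means. Their median of -0.13 turned to 0.023 without follower replicate 1, and it was -0.55 between the invasive controls. ASNS, asparagine synthetase, was higher on all leader arrays (4.81, 6.03 and 5.56) than on the follower arrays (3.86, 4.67 and 4.29), with a difference of 1.19 whose 95% interval ran from -0.26 to 2.64.

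Genes of the hypoxia response had 9 higher and 6 lower means, with a median of 0.05. VEGFA (difference 0.93) was the one with an unadjusted p under 0.05. BNIP3, a mitophagy receptor induced by HIF, was at 6.39, 6.6 and 6.96 in leader and at 5.33, 5.59 and 5.30 in follower cells, a difference of 1.24 that was 1.09 to 1.38 with single arrays left out. The arrays of these groups were far apart, but a photoconverted control array at 3.95 widened the shared spread, and the 95% interval was -0.10 to 2.59. Glycolysis and pentose phosphate genes had 7 higher and 10 lower means with a median of -0.07 (-0.37 without follower replicate 3), and PGLS, the lactonase of the pentose phosphate pathway, was at 3.32, 2.99 and 3.09 against 3.42, 4.85 and 3.43, a difference of -0.77 that was -0.29 without follower replicate 2. LDHA differed by 0.46 (0.26 without leader replicate 2) and HK2 by 0.52 (0.31 without leader replicate 3), both with overlapping arrays. The t-test between the invasive controls left HK2 out (difference -0.74). Oxidative phosphorylation genes had 5 higher and 10 lower means of 15. Their median of -0.34 came to -0.04 once leader replicate 2 was left out and to -0.08 without follower replicate 1, and 0 had an unadjusted p under 0.05 in limma.

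Genes of oxidative stress and glutathione had 12 higher and 9 lower means with a median of 0.10. GSR, glutathione reductase, was at 3.35, 4.01 and 4.08 in leader and at 3.19, 2.71 and 2.57 in follower cells, and it had the only unadjusted p under 0.05 of this list. SRXN1, which repairs oxidised peroxiredoxins, was at 3.51, 3.45 and 2.90 in leader cells, and its follower values of 2.52, 2.82 and 2.85 were below all 9 others. PNP, an enzyme of purine salvage, differed by 1.71 (standard error 0.73) with values of 4.97, 3.14 and 6.06 against 2.53, 2.41 and 4.09, which overlapped. The difference was 1.04 without leader replicate 3, and a second PNP probeset differed by 1.21. Of 21 genes of serine, one-carbon and nucleotide synthesis, 11 had higher and 10 lower means.

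Genes of TGF-beta and BMP signalling gave 2 values at an unadjusted p under 0.05, both higher in leader cells, among 14 measured genes with 7 higher and 7 lower means, beside 2.14% of all genes. SMAD5, a transcription factor that BMP receptors phosphorylate, was at 3.81, 3.59 and 3.07 in leader cells and at 2.45, 2.48 and 2.5 in follower cells. The follower arrays of SMAD5 were below all 9 others, and the difference was 1.02 (95% interval 0.41 to 1.62). BMP4, a ligand of the pathway, was at 3.26, 2.93 and 2.65 against 2.46, 2.52 and 2.30, at percentile 28.1 of all genes and so at low signal. Wnt genes had 10 higher and 9 lower means, and 0 of 19 had an unadjusted p under 0.05 in limma. Notch genes had 15 higher and 13 lower means of 28 with a median of 0.02. PSENEN, a subunit of the gamma-secretase that cuts Notch, was at 2.40, 2.24 and 2.44 in leader and at 4.24, 3.79 and 2.46 in follower cells, and NRARP, a Notch target that feeds back on the pathway, differed by -0.48.

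Genes of proliferation and cell death had members on both sides. G1/S regulators had 11 higher and 8 lower means, with RBL2, the pocket protein p130 of resting cells, at 4.38, 3.12 and 3.37 in leader and at 2.87, 2.91 and 2.79 in follower cells. All leader arrays of RBL2 were above all 9 others, and its difference of 0.77 was 0.39 without leader replicate 1. Mitosis genes had 16 higher and 20 lower means of 36 with a median of -0.04, and 0 had an unadjusted p under 0.05 in limma. The per-array medians of that list, relative to each gene's mean over the 12 arrays, were -0.24, 0.13 and -0.15 on leader and -0.22, 0.41 and -0.30 on follower arrays, so that arrays of a group differed more than the groups did. Between the invasive controls the median of the list was -0.43. CCNB2, a mitotic cyclin, was at 4.65, 5.55 and 3.94 against 2.79, 3.55 and 3.99. DNA replication genes had 12 higher and 7 lower means (median 0.08), DNA repair genes 7 and 13 (median -0.03) and apoptosis regulators 12 and 8 (median 0.04), with no unadjusted p under 0.05 in limma among the 19, 20 and 20 measured. MCL1, a survival factor of short half-life, was lower on all leader arrays (3.75, 4.01 and 4.09) than on follower arrays (4.28, 4.87 and 4.92), a difference of -0.75 with a 95% interval that included 0.

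**Figure D4:**
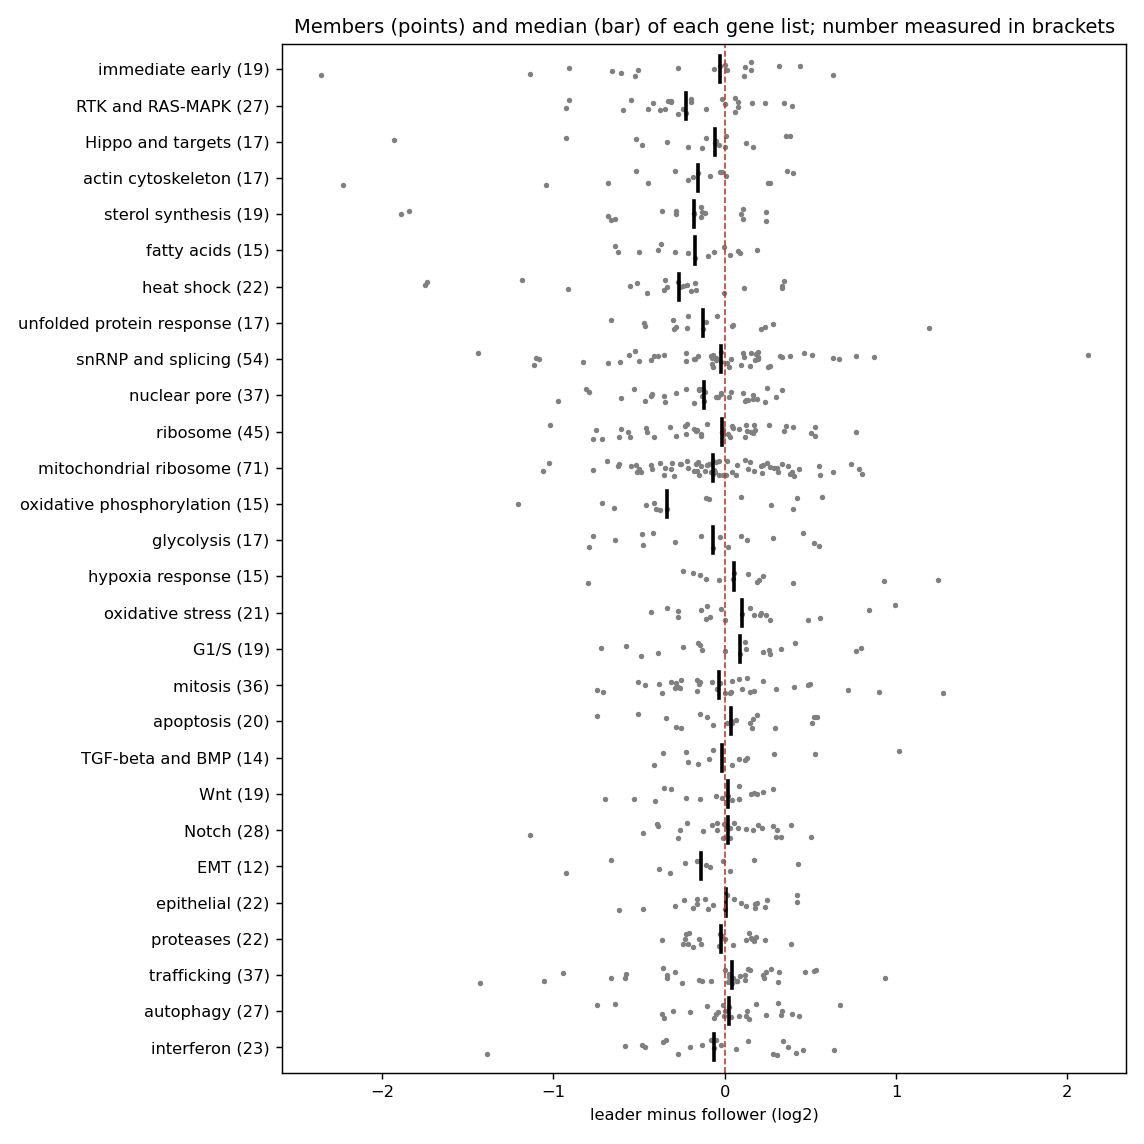
Leader minus follower log2 difference (x axis) of the members of 28 gene lists, 1 row per list with the number of measured members in brackets. Points are genes, black bars are list medians and the dashed line is the median of all genes (0.0022). Medians of the lists shown run from -0.34 for oxidative phosphorylation to 0.10 for oxidative stress, within the spread of their members. Not all of the 46 lists are drawn, and the endothelial (median 0.23) and VEGF (0.21) lists, with larger positive medians, are left out.

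Cell state and matrix genes showed little. Genes of epithelial-mesenchymal transition had 3 higher and 9 lower means (median -0.14, and -0.0018 without leader replicate 2), and AXL was the one with an unadjusted p under 0.05. Epithelial junction and keratin genes had 12 higher and 10 lower means, extracellular matrix genes 6 and 6, and proteases and their inhibitors 10 and 12. None of the 22, 12 and 22 measured had an unadjusted p under 0.05 in limma. Among genes whose proteins the study assayed, VIM was at 6.48, 4.15 and 5.14 in leader and at 6.81, 5.65 and 5.29 in follower cells, and its difference of -0.66 (standard error 0.62) was -0.11 without leader replicate 2. Its other probesets differed by -0.66 and -0.56. FN1, which encodes fibronectin, was at 2.98, 2.5 and 2.74 against 2.69, 3.23 and 2.79. DLL4, a Notch ligand, differed by 0.06, NOTCH1 by -0.01, PTK2 (the kinase FAK) by -0.12, KDR (the receptor VEGFR2) by 0.31, which was 0.00073 without leader replicate 3, and FLT1 (VEGFR1) by 0.41. Over these 8 measured genes the median was 0.02, with 4 higher and 4 lower means. VEGFA and FLT1 were the 2 with an unadjusted p under 0.05, both higher in leader cells, beside 2.14% of all genes. FLT1 lay at low signal, with means of 2.65 in leader and 2.24 in follower cells, below the median level of all genes (2.89). Its means in photoconverted and non-photoconverted control cells were 2.59 and 2.34.

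Genes of protein synthesis were better detected than most. Cytosolic ribosomal protein genes had 20 higher and 25 lower means of 45 at a median level of 4.99, and the median difference was -0.01. The paralogues and pseudogenes of these genes make single values uncertain, and RPS16 (difference -1.02) and RPS7 (0.76) lay on opposite sides. RPS16 differed by 0.47 between the invasive controls (unadjusted p 0.24 from limma), and the t-test between these controls left it out. EEF1G, a subunit of translation elongation factor 1, had one of the largest differences of all genes (-2.86) and a wide scatter, with 4.50, 2.77 and 5.14 in leader and 10.99, 7.69 and 2.31 in follower cells. It was -5.20 without follower replicate 3 and -0.86 without follower replicate 1, and a second EEF1G probeset differed by -0.02. Mitochondrial ribosomal genes had 29 higher and 42 lower means of 71, with a median of -0.07. At an unadjusted p under 0.05, 2 were lower, beside 1.98% of all genes. These were MRPS25 (-0.69) and MRPL45 (-1.02, and -0.51 without follower replicate 1). The leader arrays of MRPS25 were below all 9 others. Nuclear pore and transport genes had 13 higher and 24 lower means. Their median of -0.12 turned to 0.051 without follower replicate 2 and was -0.14 between the invasive controls. IPO7, an import receptor, was at 3.97, 3.28 and 3.56 against 5.39, 4.78 and 3.56. Its difference of -0.97 was -0.57 without follower replicate 1. Trafficking genes had 23 higher and 14 lower means of 37. Their median of 0.04 was -0.10 without leader replicate 1. None was higher and 3 were lower in leader cells at an unadjusted p under 0.05 in limma, beside 2.14% and 1.98% of all genes. These were the retromer-associated SNX2 (-1.05), the SNARE VTI1B (-0.94) and the exocyst subunit EXOC8 (-0.58, and -0.35 without follower replicate 1). SNX2 was at 2.82, 2.5 and 2.77 in leader and at 4.20, 3.27 and 3.78 in follower cells. Autophagy genes had 14 higher and 13 lower means, with ATG13, a subunit of the complex that starts autophagy, at 3.28, 3.31 and 3.48 in leader cells, above all 9 others, and at 2.60, 2.73 and 2.72 in follower cells.

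Interferon response genes had 9 higher and 14 lower means of 23 with a median of -0.06. A pair had an unadjusted p under 0.05, on opposite sides, beside 2.14% and 1.98% of all genes. IRF9, the DNA-binding subunit of the interferon-activated ISGF3 complex, was at 3.45, 3.33 and 3.37 in leader cells and at 2.31, 3.14 and 2.78 in follower cells, and its difference of 0.64 was 0.42 without follower replicate 1. ISG15, a ubiquitin-like target of that complex, was at 3.77, 3.06 and 3.88 in leader and at 5.76, 3.92 and 5.19 in follower cells, a difference of -1.38 (standard error 0.54). Chemokine and NF-kB genes had 9 higher and 18 lower means (median -0.06), among them CXCL5, a chemokine that draws neutrophils, at 2.07, 2.09 and 2.08 in leader and at 3.51, 2.12 and 2.77 in follower cells. Leader values of CXCL5 lay at the bottom of the scale, and the difference of -0.72 was -0.37 without follower replicate 1.

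MicroRNA genes contributed 4 of the 15 genes with the largest differences towards leader cells and 1 of the 15 in the other direction. They were 1072 of the 14884 genes. Their share among all genes that met the criteria is not given, so these counts are not read as an excess. Of 1072 measured microRNA genes, 538 had higher and 534 lower means, the median difference was 0.0004, and at an unadjusted p under 0.05 38 had the higher mean in leader cells and 17 in follower cells, where all genes gave 2.14% and 1.98%. A microRNA is cut from a longer hairpin and pairs with target transcripts mostly through its seed, bases 2 to 8. The array probes lie in the genes, and the amplified cDNA may come from the primary transcript or from a host gene, so that a value does not measure the mature microRNA. Mature sequences were taken from RefSeq (GRCh38.p14) for 9 of the 11 microRNA genes named, and are shown with the seed in capitals so that shared seeds can be seen. The hairpins of MIR573 and MIR16-2, the members whose neighbouring genes are described below, lie at chr4:24520192-24520290 and chr3:160404745-160404825.

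hsa-miR-573: cUGAAGUGauguguaacugaucag
hsa-miR-16-5p: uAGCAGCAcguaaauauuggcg
hsa-miR-3689d: gGGAGGUGugaucucacacucg
hsa-miR-4303: uUCUGAGCugaggacag
hsa-miR-4486: gCUGGGCGaggcuggca
hsa-miR-640: aUGAUCCAggaaccugccucu
hsa-miR-587: uUUCCAUAggugaugagucac
hsa-miR-3682-3p: uGAUGAUAcagguggagguag
hsa-miR-30e-5p: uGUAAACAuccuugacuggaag

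No seed was shared between these 9 sequences. MIR573 had the largest difference of any named gene. Its leader values were 8.45, 6.14 and 2.44, and all 9 other arrays lay between 1.70 and 2.31, so that 2 leader arrays carried a strong signal that the third did not. The difference was 3.63 (standard error 1.06), or 2.24 without leader replicate 1. Without leader replicate 3 it was 5.25 with an adjusted p of 0.017 from limma, the only adjusted p under 0.05 in any setting. No gene of the RefSeq table spans MIR573, and the nearest, DHX15, ends 7184 bases away. DHX15 encodes an RNA helicase of spliceosome disassembly, and its values were 7.27, 5.90 and 3.0 in leader and 3.29, 3.95 and 2.56 in follower cells (difference 2.12, standard error 0.82). The leader arrays thus had the same order for both genes. DHX15 was singled out after its values were seen.

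MIR548I2, a member of a large primate family with near-identical copies, was at 5.44, 8.88 and 3.99 in leader and at 2.95, 2.65 and 3.10 in follower cells (difference 3.20, and 1.81 without leader replicate 2). Its second probeset differed by 0.06. MIR16-2, which shares the seed of miR-15 and miR-16 and lies within the SMC4 gene, was at 3.29, 6.07 and 4.34 against 3.08, 2.89 and 2.75. Its difference of 1.66 was 0.91 without leader replicate 2. SMC4, a condensin subunit gene, was at 3.19, 6.47 and 4.12 in leader and at 3.57, 3.39 and 3.17 in follower cells. MIR15B, which lies within SMC4 as well, was at 1.74, 7.51 and 3.87 against 1.82, 1.67 and 2.22. All 3 genes were highest on leader replicate 2, and SMC4 and MIR15B were looked up after the values of MIR16-2 were seen. Of the 6 other measured genes with the seed of miR-16-5p, 3 lay higher and 3 lay lower in leader cells by their means. MIR3689D1 was at 8.42, 6.42 and 6.89 in leader cells, above all 9 others, and at 5.92, 6.22 and 4.64 in follower cells. MIR3689D2, which encodes the same mature microRNA and was looked up after MIR3689D1 was picked, had the lower mean in leader cells. The difference of MIR3689D1, 1.65, was 1.06 without leader replicate 1.

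The microRNA genes with the smallest p-values towards leader cells were MIR4303 (difference 1.23), MIR4486 (1.06) and MIR640 (0.81). MIR640 was at 2.76, 3.06 and 3.35 in leader and at 2.26, 2.26 and 2.22 in follower cells, which were below all 9 others. MIR4486 stood at percentile 4.96 of all genes, close to no signal.

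In follower cells MIR587 was high on 2 arrays. Its values were 3.90, 4.27 and 4.73 in leader and 8.50, 7.45 and 4.67 in follower cells, and no control array exceeded 5.71. The difference was -2.58 (95% interval -4.25 to -0.90), and it was -1.76 without follower replicate 1. MIR3682 was at 2.55, 2.41 and 2.52 against 3.66, 5.12 and 3.09 (difference -1.47, and -0.89 without follower replicate 2). MIR30E, of the miR-30 family, was at 2.22, 1.96 and 2.17 against 3.14, 2.65 and 4.76, a difference of -1.40 that was -0.78 without follower replicate 3. Of the 3 other measured genes with the seed of miR-30e-5p, 1 had a higher and 2 had lower means in leader cells. MIR1322 was at 2.47, 2.95 and 1.62 against 3.50, 3.10 and 5.52, and its difference of -1.69 was -0.95 without follower replicate 3. In each of these genes a single array or a pair of arrays held the larger part of the difference.

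**Figure D5:**
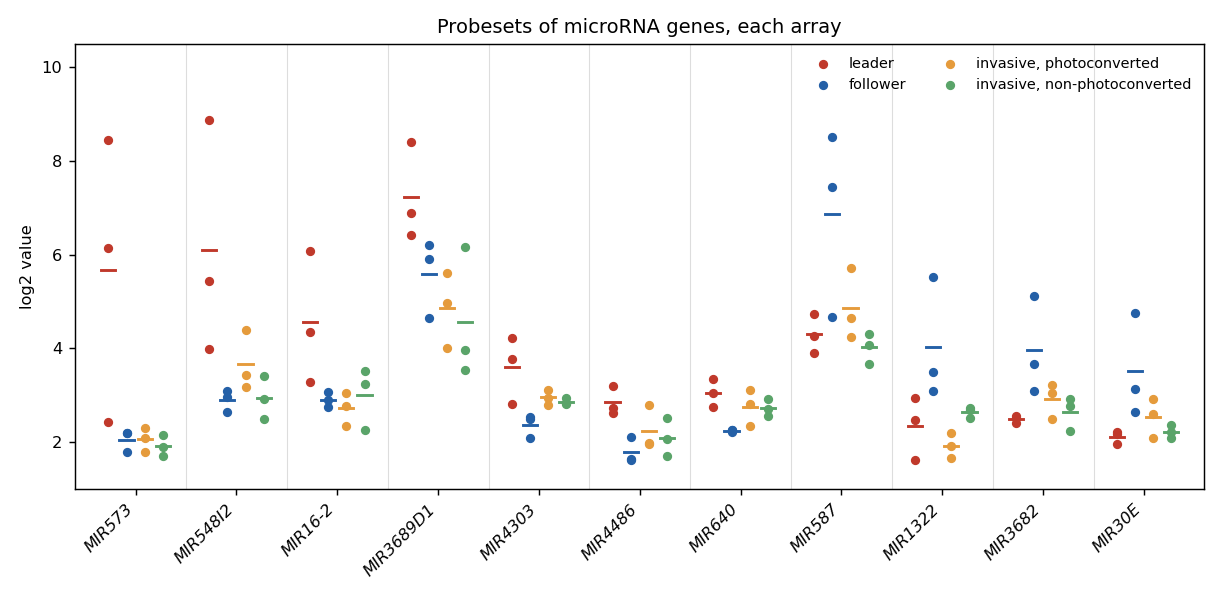
Log2 values (y axis) of the probesets of 11 microRNA genes on each of the 12 arrays, with points for arrays, bars for means of 3 and colours for the 4 groups. MIR573, MIR548I2 and MIR587 each show 1 or 2 arrays of a group far above the rest.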

How the data were processed

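Arrays were of the Human Gene 2.0 ST type (Affymetrix), each with amplified RNA of 10 sorted cells. For every probeset and array the authors deposited a log2 value. Values were GC adjusted, background corrected by RMA, quantile normalized and summarised by the mean in Partek 6.6, the version that the submitters' processing notes name. No genome build is named for the values, and an array has no read depth, so that the number of arrays limits the precision. Fits used limma 3.58.1 in R 4.3.3 with 12 arrays in 4 groups, the contrast leader minus follower and Benjamini-Hochberg adjustment over 14884 symbols; the code was tested on simulated data. Standard errors and 95% intervals come from this fit. The permutation procedure of the methods, as read here, used 500 permutations and left out 686 genes that differed between the invasive controls by a t-test. The methods name no test for leaving genes out, so this t-test was a choice made here. Since nothing says that the wells were separate cultures, the p-values here reflect no more than the spread among these arrays, which may be technical. Named genes were the 15 with the largest difference in each direction among those with leader and follower arrays apart, unadjusted p under 0.05 and a mean of at least 4 in the higher group, up to 4 genes per list with the smallest p, the genes whose proteins the study assayed, 3 microRNA genes per direction and the 5 genes of highest level. A few further genes were named after their values were seen, and the text says so there. Members and lists were chosen with earlier results of these data known. Sequences and neighbouring genes came from RefSeq tables of GRCh38.p14. Alternatives were another normalization, filter, probeset rule, variance model, weighting, replicate block, test and each array left out.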

Additional observations from a re-analysis of the deposited data

How the results depend on the processing

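The count of genes with an adjusted p under 0.05 was 0 under every alternative fitted with limma except without leader replicate 3, where it was 1 (MIR573, 5.25), so that it ranged from 0 to 1 with single arrays left out. Counts at an unadjusted p under 0.05 were 121 for leader and 124 for follower cells with a filter on level, which tests fewer genes, and 1209 and 943 over all probesets, which tests more. With single arrays left out they ranged from 263 to 389 for leader and from 228 to 444 for follower cells. The replicate block gave 328 and 341 genes and 0 after adjustment. Same-numbered leader and follower arrays had deviations that correlated at 0.010, -0.020 and 0.085, so the numbers were not taken to pair the samples, and the block changed no other call. The split between directions was 318 and 356 with cyclic loess and 280 and 320 with median centring, against 318 and 295. An unpaired t-test of leader against follower arrays counted 363 and 239 genes and 0 after Benjamini-Hochberg adjustment, and the methods' permutation procedure 464 and 376. Of 217 named genes, 208 kept their direction in all settings. The other 9 turned with single arrays left out, with differences that ranged from -0.647 to 0.074 for BMP6, from -0.872 to 0.029 for RAD50, from -1.46 to 0.069 for DLD, from -0.011 to 0.561 for EPHB1, from -0.056 to 0.172 for DLL4, from -0.077 to 0.080 for NOTCH1, from -0.424 to 0.079 for PTK2, from -0.055 to 0.017 for GAGE12C and from -0.046 to 0.233 for MALAT1. GAGE12C was also 0.12 with the mean of its probesets. The cause was not tested. The filter on level left no gene of the extracellular matrix list, so that this list has no median there. Most genes lay near the bottom of the array's scale, which limits what can be detected.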

Other observations

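Some of the largest differences of all genes lay outside the criteria because the arrays overlapped or the spread was wide, and they are given as values, chosen after the values were seen. MIR21, the gene of a microRNA known for its high levels in tumours, was at 4.02, 4.50 and 2.43 in leader and at 6.45, 8.05 and 4.69 in follower cells, and its difference of -2.75 had a 95% interval of -5.74 to 0.25. A non-photoconverted control array reached 8.18, and the other 5 control arrays lay between 2.03 and 2.62. MIR221 was at 3.64, 2.75 and 2.25 in leader and at 9.32, 4.56 and 2.94 in follower cells, a difference of -2.73. SCARNA5, a small Cajal body RNA gene, had the difference of largest size towards follower cells (-2.88), with 10.15 on follower replicate 1 and values between 1.99 and 2.72 on the 5 other leader and follower arrays, and a non-photoconverted control array reached 7.25. SCARNA9L was at 4.45, 1.74 and 3.52 against 3.21, 9.20 and 5.83, a difference of -2.84. Follower replicate 1 held the highest leader or follower value of MIR221 and SCARNA5, and follower replicate 2 that of MIR21 and SCARNA9L. All 4 genes had an adjusted p of 1.00 from limma.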
